A study of Mus musculus with 12 samples.

Results

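The extracellular matrix and skeletal development gene sets described here are Gene Ontology (GO) terms, each a named list of genes that share a process, a component or an activity. They were taken by name: a term was a member if its name held 1 of 8 words or word stems (extracellular, collagen, skelet, bone, cartilage, ossif, chondro, connective) and did not hold cytoskelet. The rule gave 26 distinct terms of the 490 that were listed for any gene list, and 45 of all 1076 listed entries. The gene lists came from chromatin immunoprecipitation and sequencing of H3K4me3, a histone mark at the promoters of active genes, in the whole hippocampus of 12 C57BL/6N mice at postnatal day 30.

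The mice were 3 Del/+, 3 Kansl1+/- and 6 wt, the wt mice being 3 littermates of each mutant. Del/+ mice carried a heterozygous deletion of the Arf2-Kansl1 interval, made in vivo with loxP sites and a Cre recombinase driven by Hprt in oocytes. Kansl1+/- mice carried 1 tm1b(EUCOMM)Hmgu allele of Kansl1, made by Cre from the tm1a allele and derived from 1 ES cell clone, so both mutants were heterozygous for a deletion or a targeted allele of Kansl1, which encodes a subunit of a histone acetyltransferase complex. Each mutant was set by the authors against the same 6 wt libraries, so lists from the 2 mutants are not independent. The lists are the genes whose promoter had more (up) or less (down) H3K4me3 in each mutant, and 4 clusters of up genes. The authors describe cluster 1 as up in Kansl1+/- and not in Del/+, cluster 2 as up in both, cluster 3 as more strongly up in Del/+, and cluster 4 as up in Del/+ alone.

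The extracellular matrix is the network of collagens, other glycoproteins and proteoglycans that cells secrete around themselves, and proteases such as the matrix metalloproteinases take it apart again. Most bones are laid down first as a cartilage matrix made by chondrocytes and then replaced by bone, which is called endochondral ossification. In brain tissue, collagen-rich matrix is found mainly at the meninges and in the basement membranes of blood vessels, and a different matrix surrounds neurons.

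The files give, for each listed term, how many genes of the list and of the background were in it, and the number expected by chance. The sizes that return these expected numbers were 160, 214, 212 and 162 genes for clusters 1 to 4, 343 and 483 for Kansl1+/- up and down, 512 and 343 for Del/+ up and down, and 23468 for the background. A fold below is the share of the list in the term over the share of the background in it. Intervals are exact 95% Clopper-Pearson intervals and cover counting error only, because no value per mouse was analysed, the depth of the libraries is unknown, and the spread between mice could not be given. No gene is named in the files used here, so the hippocampus label could not be checked against marker genes. Cell type markers among the genes of each list were not counted here, and their part in the term counts was not tested. In bulk tissue, a change in the number of cells of a type cannot be told apart from a change of the mark within them.

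Member terms were listed for 3 of the 8 lists: cluster 1, Kansl1+/- up, and cluster 2, which the authors describe as up in both mutants. Cluster 1 had 21 of the 26 members, which is 11.1% of its 190 listed terms, where 38.8% of the 490 terms were listed. Kansl1+/- up also had 21, which is 6.95% of its 302 listed terms, where 61.6% were listed. Cluster 2 had 3, against 21.2% of the 490. The other 5 lists had 0 members, although cluster 3 listed 25.5%, cluster 4 18.2% and Del/+ up 51% of the 490 terms. Kansl1+/- down and Del/+ down listed few terms of any kind, 2.86% and 0.408%. The name rule was applied to these same tables and the authors listed terms for their enrichment, so the counts are a description and nothing was tested.

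Of the members, 16 were listed for both cluster 1 and Kansl1+/- up. Another 5 were listed for cluster 1 and not Kansl1+/- up, and 5 for Kansl1+/- up and not cluster 1. Over all 490 terms, 163 were listed for both and 27 for cluster 1 and not Kansl1+/- up. The rest of the 302 terms of Kansl1+/- up were not listed for cluster 1. Nothing is read from the member counts beside these. In all, 9 members were listed for 1 list, 15 for 2 lists and 2 for 3 lists. The number of lists per term was not counted over all 490 terms, so these counts do not show whether members overlap more than other terms. The tables sort their terms into groups, and the members fell into 6 of 28 such groups in cluster 1, 1 of 18 in cluster 2 and 5 of 35 in Kansl1+/- up. Terms of 1 group, and of different groups, share genes, so the members are not independent observations.

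The terms for building the matrix and taking it apart were all listed for cluster 1. Extracellular matrix organization held 20 of the 160 genes, where 2.55 were expected, a share of 12.5% (7.81 to 18.6%) against 1.59% of the background. Its fold in cluster 1 was 7.84 (4.90 to 11.7). The same term held 26 of 343 genes of Kansl1+/- up against 5.47 expected, a fold of 4.76 (3.14 to 6.85). Extracellular structure organization is the same set with 1 background gene more, 375 against 374, and had the same 20 and 26 genes. It adds nothing to the first term.

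Extracellular matrix disassembly, the breakdown of matrix, held 9 genes of cluster 1 where 0.791 were expected, a fold of 11.4 (5.27 to 21.1). Kansl1+/- up had 10 genes against 1.70 expected, a fold of 5.90. Collagen metabolic process held 7 of its 82 background genes in cluster 1, a fold of 12.5 against an expected 0.559. Collagen catabolic process, the breakdown of collagen, held 7 of 72, a fold of 14.3 against an expected 0.491. Since every catabolic gene is also metabolic, all 7 collagen metabolic genes of cluster 1 were catabolic, and 0 came from the 10 background genes outside the catabolic term. Outside disassembly, extracellular matrix organization still held 11 genes of cluster 1 among 258 background genes, a fold of 6.25 (3.17 to 10.9). Whether the collagen catabolic genes are among these 11 cannot be read from the counts.

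The terms for the substance of the matrix gave shares of the same order. Extracellular matrix, the component itself, held 19 genes of cluster 1 against 2.92 expected, a fold of 6.51, and 28 genes of Kansl1+/- up against 6.26 expected, a fold of 4.48. Proteinaceous extracellular matrix held 17 genes of cluster 1 against 2.42 expected, a fold of 7.02. Kansl1+/- up held 23 of its genes against 5.19 expected, a fold of 4.43. Extracellular matrix component, the parts from which matrix is assembled, held 11 genes of cluster 1 against 1.00 expected, a fold of 10.98, and 13 of Kansl1+/- up against 2.15 expected, a fold of 6.05. Of the 19 matrix genes in cluster 1, 2 lay outside the proteinaceous term, among 73 such background genes, a fold of 4.02 with an interval of 0.488 to 14.3 that includes 1.

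Collagens wind as trimers, and some trimers assemble further into fibrils and networks. Collagen trimer held 8 genes of cluster 1 of 82 in the background, 0.559 expected, a fold of 14.3 (6.25 to 27.5). Complex of collagen trimers, the assembled forms, held 6 genes of cluster 1 of only 23 in the background, 0.157 expected, a fold of 38.3 (14.2 to 81.5). That fold was number 3 of the 190 listed for cluster 1. In Kansl1+/- up the same term held 6 genes against 0.336 expected, a fold of 17.8 (6.58 to 38.5), number 4 of 302. Extracellular matrix structural constituent, the activity of giving a matrix its strength, held 6 genes of cluster 1 of 62 in the background, 0.423 expected, a fold of 14.2 (5.26 to 30.2). The tables put collagen trimer, collagen catabolic process and extracellular matrix disassembly in 1 group for cluster 1, and how many genes they share cannot be read from counts.

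The skeletal terms ran from the whole skeleton to a single step of bone growth. Skeletal system development held 22 genes of cluster 1, a share of 13.8% (8.82 to 20.1%) against 2.10% of the background. With 3.37 expected, its fold was 6.53. Kansl1+/- up held 35 genes against 7.22 expected, a fold of 4.85 (3.43 to 6.61). Skeletal system morphogenesis, the shaping of the skeleton, held 14 genes of cluster 1 against 1.60 expected, a fold of 8.78, and 20 of Kansl1+/- up against 3.42 expected, a fold of 5.85. Bone development held 12 genes of cluster 1 against 1.16 expected, a fold of 10.4, and 17 of Kansl1+/- up against 2.48 expected, a fold of 6.84. Bone morphogenesis held 10 against 0.641 expected, a fold of 15.6 (7.58 to 27.9), and 13 against 1.37 expected in Kansl1+/- up, a fold of 9.46.

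Cartilage development held 12 genes of cluster 1 of 165 in the background, 1.12 expected, a fold of 10.7 (5.60 to 18.1). Kansl1+/- up held 16 against 2.41 expected, a fold of 6.63. Connective tissue development had the same 12 and 16 genes with a larger background of 213, so that 1.45 and 3.11 were expected and the folds were 8.26 and 5.14. By subtraction, 0 of the 48 background genes of connective tissue development outside cartilage development were in cluster 1, and 0 in Kansl1+/- up. With 0.327 and 0.702 expected, a count of 0 is what lists of these sizes would most often give. The connective tissue counts were counts of cartilage genes in both lists.

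The 2 endochondral terms were the smallest skeletal sets. Endochondral bone morphogenesis, the shaping of bone through cartilage, held 8 genes of cluster 1 of 59 in the background, 0.402 expected, a fold of 19.9 (8.68 to 38.2). Kansl1+/- up held the same number, 8, against 0.862 expected, a fold of 9.28 (4.03 to 18.1). Endochondral bone growth, the lengthening of bone at the cartilage plate, held 5 genes of cluster 1 of 24 in the background, 0.164 expected, a fold of 30.6 (9.997 to 69.8), number 5 of 190. The tables put both endochondral terms beside developmental growth and organ growth, and not beside the other bone terms, in cluster 1. For Kansl1+/- up they put endochondral bone morphogenesis in 1 group with bone development, bone morphogenesis, cartilage development and the growth terms.

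**Figure D1:**
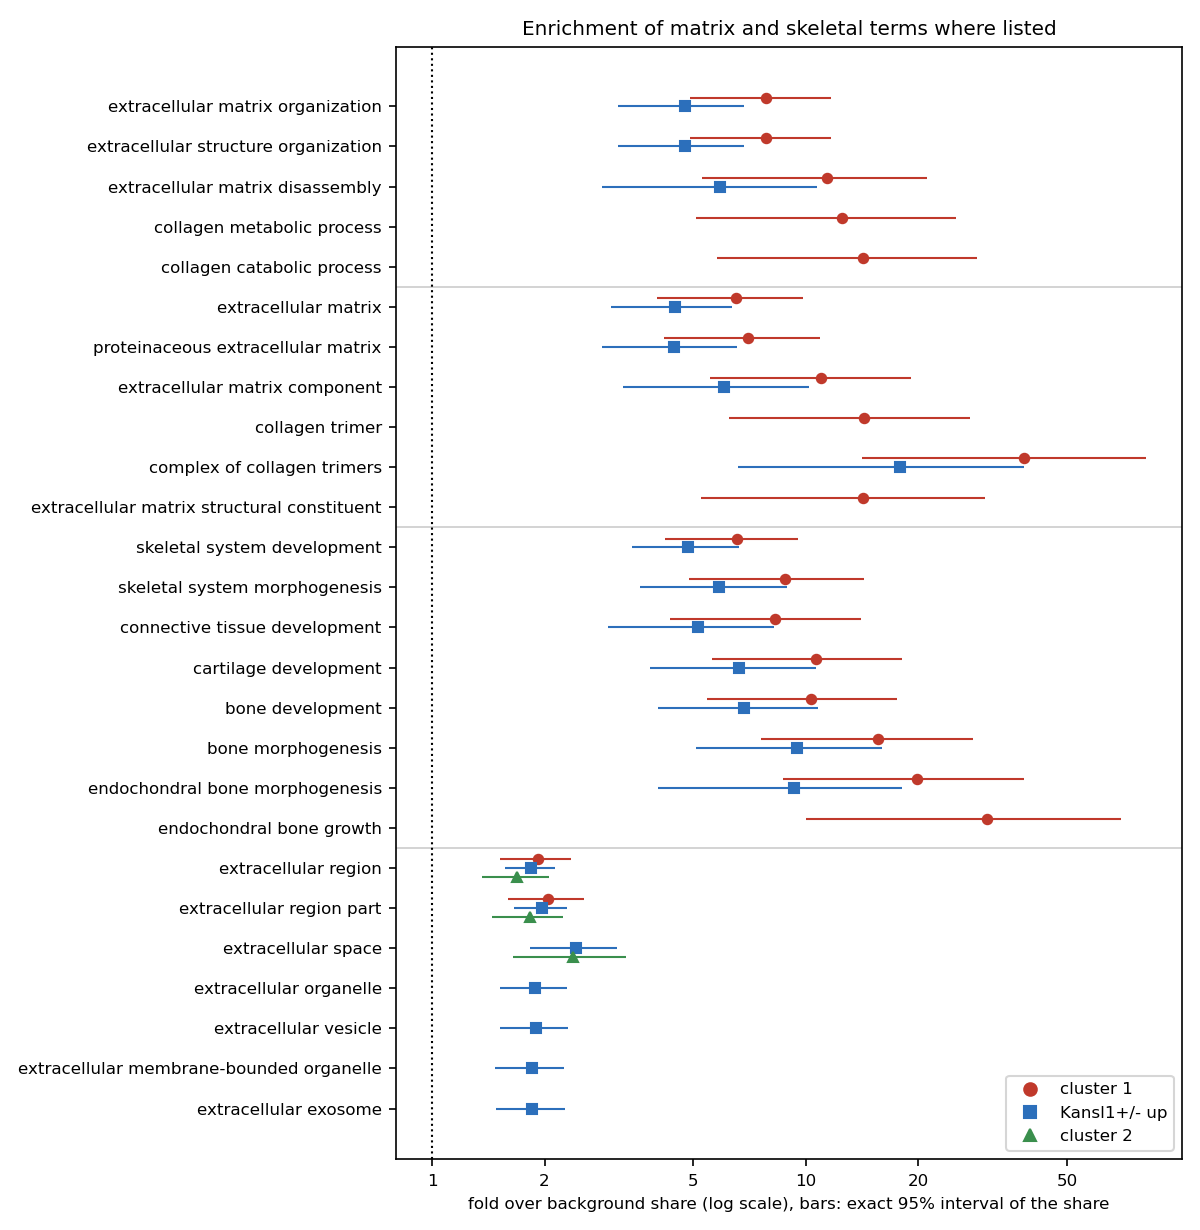
Fold over the background share, on a log axis, of each member term in the lists where it was listed: cluster 1 (red circles), Kansl1+/- up (blue squares) and cluster 2 (green triangles). Bars are exact 95% intervals of the share, the dotted line is a fold of 1, and grey lines part the matrix organization, matrix structure, skeletal and extracellular location terms. The matrix and skeletal terms of cluster 1 lie between 6.51 and 38.3, and the location terms of all 3 lists between 1.69 and 2.43.

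Folds also followed the size of the term. Across all 190 terms of cluster 1, Spearman's rho between background genes and fold was -0.97, and it was -0.97 across the 302 terms of Kansl1+/- up. This is a description across terms that share genes and a listing threshold, and small sets reach that threshold only with a high fold. The median fold of the 21 members in cluster 1 was 10.7, against 3.99 over all 190 terms, but the median member had 165 background genes and the median listed term 733.5. Among terms with at most 1000 background genes, the medians were 10.98 for 19 members and 5.99 for all 117 terms. Sizes still differed under this limit, with medians of 147 background genes for members and 388 for all terms. The limit therefore does not match members and other terms for size. For Kansl1+/- up the members had a median fold of 4.76 against 3.05 over all terms, and 5.87 against 4.09 up to 1000 genes. Median sizes up to 1000 genes were 191.5 and 363 there. Of the 20 highest folds, 7 in cluster 1 and 3 in Kansl1+/- up were members. Members were 11.1% of the 190 and 6.95% of the 302 listed terms. Small terms rank high by fold and members were smaller, so nothing is read from these counts. By role, the median folds in cluster 1 were 11.4 for matrix organization, 12.6 for matrix structure and 10.5 for the skeleton. These 3 roles lay close together. The order in Kansl1+/- up was 6.63 for the skeleton, 5.26 for matrix structure and 4.76 for matrix organization.

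**Figure D2:**
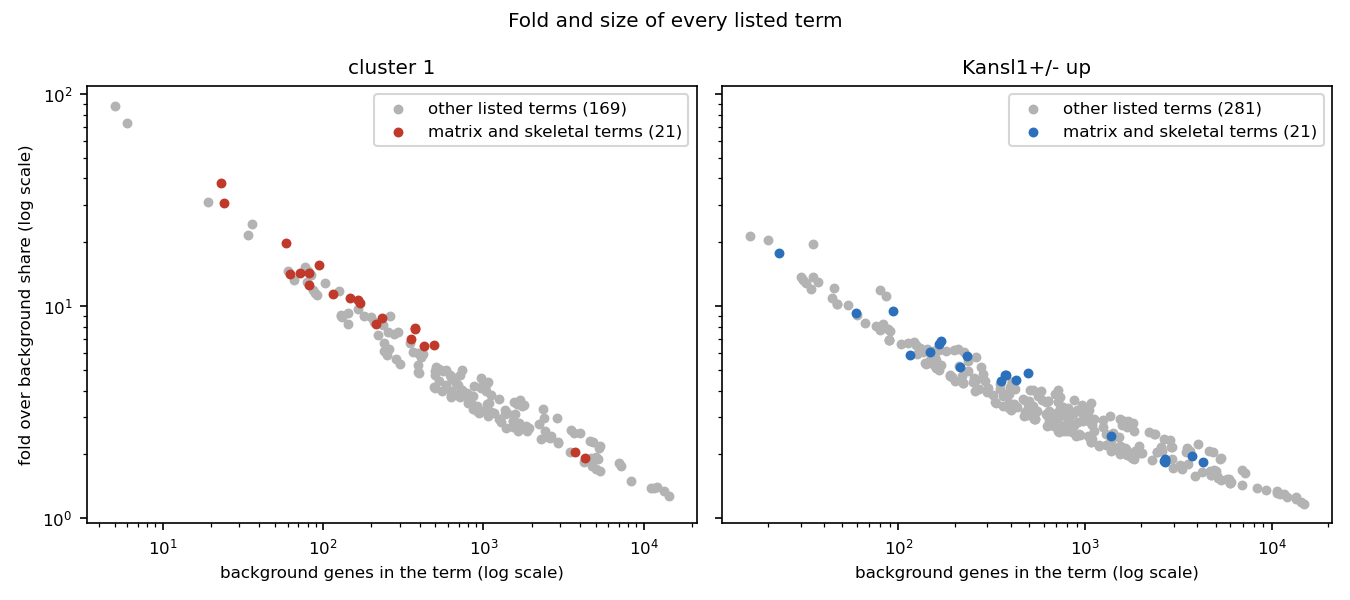
Fold (log axis) against the number of background genes in the term (log axis) for every listed term of cluster 1 (left) and Kansl1+/- up (right), with member terms coloured and the other terms grey. Folds fall as terms grow in both lists, with a Spearman's rho of -0.97 in each, and members lie on the same slope as the other terms. In cluster 1 some members lie along its upper edge and some lie below other terms of like size.

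Skeletal terms lie inside each other, and each inner set is given here beside what remained of the set around it. An inner set is in the table only because it passed the listing threshold, which a small set does only at a high fold, and its remainder passed no such filter. A higher fold of the inner set is therefore largely fixed by the listing, and the values are a description. Bone development had a fold of 10.4, and the rest of skeletal system development, 10 genes among 324, had 4.53 (2.20 to 8.11). Bone morphogenesis had 15.6, and the rest of skeletal system morphogenesis, 4 genes among 140, had 4.19 (1.15 to 10.5). The rest of bone development outside bone morphogenesis held 2 genes among 76, a fold of 3.86 whose interval, 0.469 to 13.7, includes 1. Inside bone morphogenesis, the endochondral set had 19.9 and the remaining 2 genes among 35 had 8.38 (1.02 to 29.8). Inside the endochondral set, bone growth had 30.6 and the remaining 3 genes among 35 had 12.6 (2.60 to 36.1). The intervals of inner sets and remainders overlapped in each of these 5 pairs, which does not show that the folds are alike, and no test of the difference was made. The remainders in Kansl1+/- up were 3.80 beside 6.84 for bone development, and 3.42 and 3.60 beside 9.46 for bone morphogenesis. For the endochondral set of that list the remainder was not lower, with 9.77 for the other 5 bone morphogenesis genes beside 9.28.

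**Figure D3:**
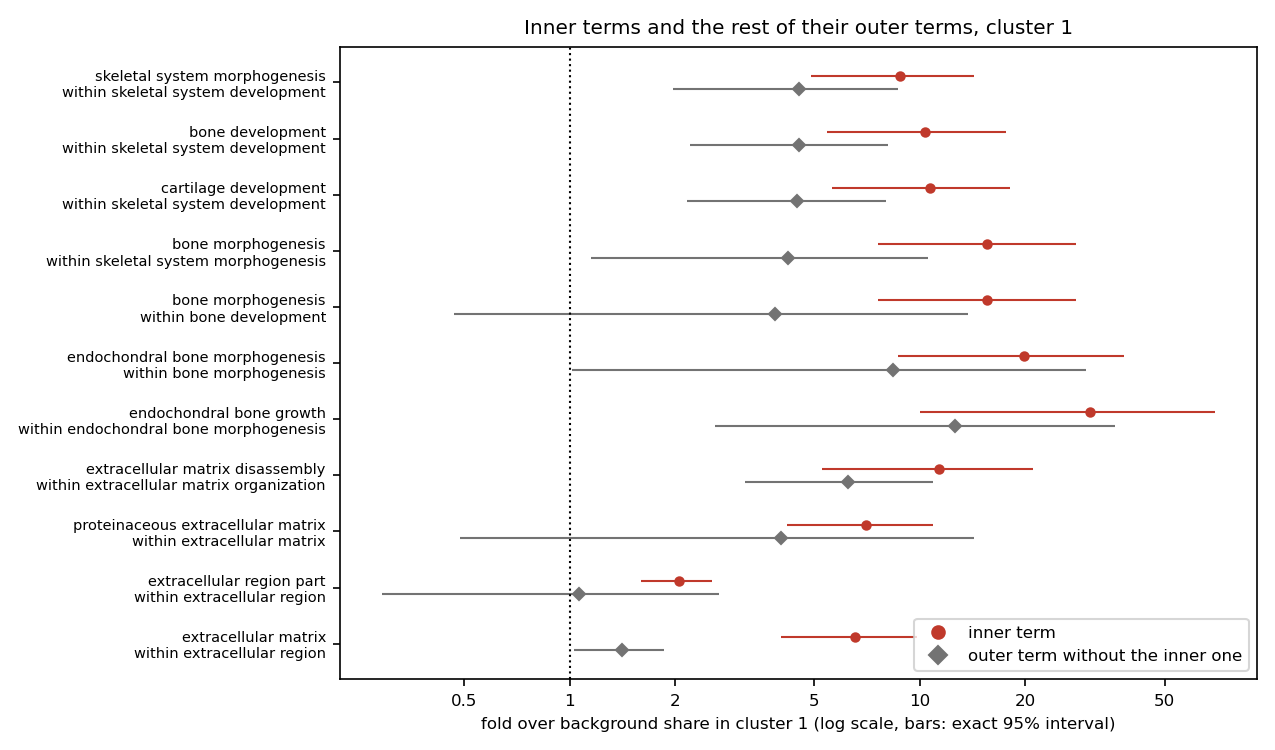
Fold in cluster 1 (log axis) of an inner term (red circles) and of its outer term without the inner one (grey diamonds), with exact 95% intervals. Pairs whose remainder held 0 genes are left out. Inner terms lie to the right of their remainders, which the listing of inner terms by their enrichment largely fixes, and extracellular matrix is at 6.51 beside 1.41 for the rest of extracellular region.

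The widest terms, which say only that a gene product lies outside the cell, gave low folds with narrow intervals. Extracellular region held 56 genes of cluster 1, 35.0% (27.6 to 42.9%), against 18.2% of the background and 29.2 expected, a fold of 1.92. Cluster 2 held 66 genes of the same term, 30.8% (24.7 to 37.5%), against 39.0 expected, a fold of 1.69, and Kansl1+/- up held 115, 33.5% (28.5 to 38.8%), against 62.5 expected, a fold of 1.84. The 3 intervals overlapped. Extracellular region part gave folds of 2.05, 1.83 and 1.97 in these lists, with 52, 62 and 107 genes against 25.4, 34.0 and 54.4 expected.

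Extracellular space, the fluid outside cells where secreted proteins act, was listed for cluster 2 and Kansl1+/- up and not for cluster 1. It held 30 genes of cluster 2 against 12.6 expected, a fold of 2.38 (1.64 to 3.30), and 49 of Kansl1+/- up against 20.2 expected, a fold of 2.43 (1.83 to 3.13). Cluster 2 thus had members for the location outside the cell, and none of the 19 matrix and skeletal terms was listed for it. Counts of cluster 1 and cluster 2 in extracellular region add to 122, which is 7 more than Kansl1+/- up held, and those in extracellular region part add to 114, again 7 more. So at least 7 such genes of these clusters were not in the Kansl1+/- up list, or were counted in both clusters.

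Extracellular region and extracellular region part are given here without terms that lie inside them. The inner terms were listed for their own enrichment, so lower folds of the remainders are largely fixed by the listing. The values are a description. Without its 19 extracellular matrix genes, extracellular region held 37 genes of cluster 1 among 3848 background genes, a fold of 1.41 (1.03 to 1.86). In Kansl1+/- up, 87 genes outside the matrix gave 1.55 (1.27 to 1.85). The genes of extracellular region outside extracellular region part were near the background in each list, with 4, 4 and 8 genes in cluster 1, cluster 2 and Kansl1+/- up and folds of 1.06, 0.795 and 0.992. Outside extracellular space, extracellular region part still had a fold of 1.498 in cluster 2 (32 genes) and 1.69 in Kansl1+/- up (58 genes).

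A last set of members concerns vesicles released by cells, and these were listed for Kansl1+/- up alone. Extracellular organelle held 74 genes against 39.2 expected, a fold of 1.89 (1.52 to 2.30), and extracellular vesicle held 74 against 39.1 expected, a fold of 1.89. Extracellular membrane-bounded organelle held 72 against 39.0 expected, a fold of 1.85, and extracellular exosome 72 against 38.9 expected, a fold of 1.85. The 4 terms are almost 1 set of genes, since their backgrounds held 2682, 2673, 2669 and 2660 genes. The organelle term makes up 62.7% of the background of extracellular region, and outside it the region still held 41 genes, a fold of 1.76 (1.28 to 2.34). The organelle term as a whole thus had 1.89 and the rest of the region 1.76, a difference that was not tested. Such folds are averages over unlike sets. In the same list extracellular matrix had 4.48, and the region outside extracellular region part had 0.992.

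Cluster 1 was compared next with the other genes of Kansl1+/- up, which asks whether the members were spread over that list. The 160 genes of cluster 1 were taken to be part of the 343, as the authors' description of the cluster implies, and the counts allowed this: in 0 of the 163 terms listed for both did cluster 1 hold more genes. The inclusion need not be strict, because clusters 1 and 2 add to 374 genes, so at least 31 genes of these clusters lay outside the 343 or were counted in both clusters. Counts for the genes outside cluster 1 rest on this assumption. Under it, cluster 1 is 46.6% of the list and 183 genes lie outside it. Over the 16 shared members, the median share of a term's Kansl1+/- up genes that lay in cluster 1 was 75.0%, from 48.6% to 100%. Over all 163 shared terms the median was 58.9%, from 47.1% to 100%. Shared terms had to pass the listing threshold in cluster 1 itself, so shares above 46.6% are what the selection gives, and no test was made.

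If all cluster 1 genes are in Kansl1+/- up, all 6 of its genes in complex of collagen trimers were in cluster 1. So were all 8 in endochondral bone morphogenesis, and these were the only 2 of the 163 shared terms with 100%. Neither share would be 100% with 1 cluster 1 gene of the term outside the list. With counts so small, the exact intervals of these shares reach down to 54.1% and 63.1%. Extracellular matrix disassembly had 9 of 10 genes in cluster 1, extracellular matrix component 11 of 13 (84.6%), and extracellular matrix organization 20 of 26 (76.9%, 56.4 to 91.0%). Skeletal system development had 22 of 35 (62.9%, 44.9 to 78.5%). At the other end, extracellular region had 56 of 115 (48.7%) and extracellular region part 52 of 107 (48.6%), close to the 46.6% that an even spread over the list would give.

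Outside cluster 1, extracellular matrix organization held 6 of 183 genes, 3.28% (1.21 to 7.0%), against 12.5% in cluster 1 and 1.59% in the background. Skeletal system development held 13 of 183, 7.10% (3.84 to 11.8%), against 13.8% in cluster 1 and 2.10% in the background. Their folds there were 2.06 (0.761 to 4.39) and 3.37 (1.82 to 5.63). Among the 7 shared matrix terms, the interval outside cluster 1 excluded a fold of 1 for extracellular matrix alone, with 2.70 (1.25 to 5.01). Among the 7 shared skeletal terms it did so for 3, which were skeletal system development, skeletal system morphogenesis (1.22 to 7.02) and bone development (1.23 to 8.64). It included 1 for bone morphogenesis (0.847 to 11.8), cartilage development (0.852 to 7.83) and connective tissue development (0.660 to 6.06), and endochondral bone morphogenesis had 0 genes there. Whether the matrix and skeletal terms differ outside cluster 1 was not tested. Over the 16 shared members the median fold was 8.52 in cluster 1 and 2.11 outside it. It was 2.05 for the 7 matrix terms and 3.29 for the 7 skeletal terms outside cluster 1. For 10 of the 16 the background share lay within the interval of the remaining genes. Shared terms were listed for being high in cluster 1 and also in Kansl1+/- up, which holds the remaining genes. No difference from cluster 1 or from the background is therefore read from these intervals, which are a description.

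**Figure D4:**
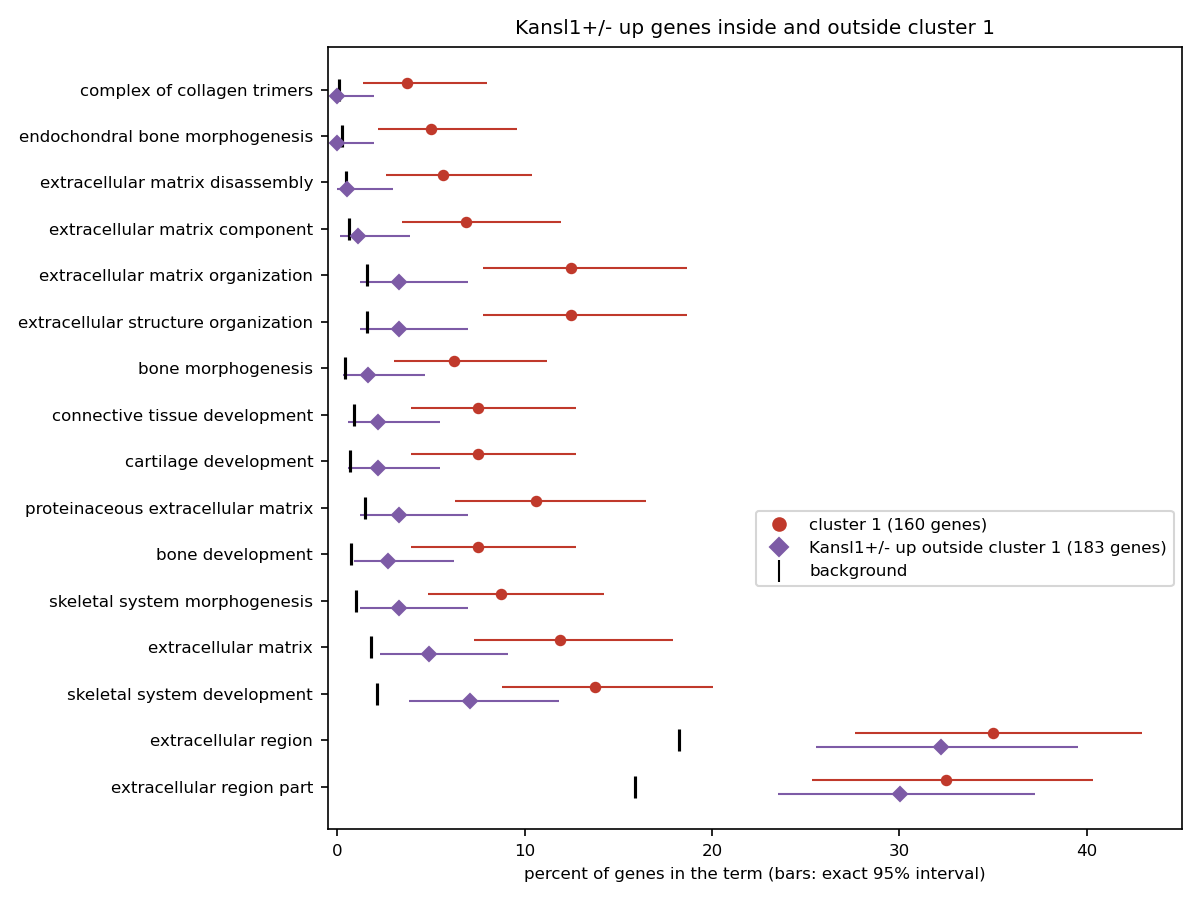
Percent of genes in each shared member term among the 160 genes of cluster 1 (red circles) and the 183 other Kansl1+/- up genes (purple diamonds), with exact 95% intervals. Black ticks are the background share. Extracellular matrix organization is at 12.5% and 3.28%, and the 2 extracellular region terms are nearly level between both sets of genes.

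For the location and vesicle terms that were not listed for cluster 1, its count could be bounded. A term that was not listed must have fewer genes than any listed term with as many or more background genes, if every term past the threshold was listed. Cluster 1 thus held at most 24 genes of extracellular space, so at least 25 of the 49 in Kansl1+/- up, 13.7% of the 183, lay outside it, against 5.88% of the background. Of the 74 extracellular vesicle genes, at most 44 were in cluster 1 and at least 30, or 16.4% of the 183, were outside, against 11.4% of the background. These terms are the ones that passed the listing threshold in Kansl1+/- up and not in cluster 1, so a surplus outside cluster 1 follows from that selection and nothing is read from it.

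The same reasoning bounded the 5 members that were listed for cluster 1 and not for Kansl1+/- up. If all cluster 1 genes of a term are inside that list, collagen trimer held 8 and endochondral bone growth 5 of the 343 genes, the numbers in cluster 1. On the same assumption, collagen catabolic process and collagen metabolic process each held 7 or 8, and extracellular matrix structural constituent 6 or 7. At most 1 gene of each of these collagen and matrix terms was then in the 183 genes outside cluster 1.

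Del/+ up was the longest list, with 512 genes and 250 listed terms, and had no member. Extracellular matrix organization held at most 27 of its genes, a fold of at most 3.31. Skeletal system development held at most 28, a fold of at most 2.60, and complex of collagen trimers at most 6, a fold of at most 12.0. Bone morphogenesis held at most 11, a fold of at most 5.36. For 16 of the 19 matrix and skeletal terms this highest fold was below the interval of the fold in cluster 1. A longer list is listed at a lower fold, so a limit below the fold of cluster 1 or Kansl1+/- up follows from the listing itself. The limits also leave room above the background, since 8.16 genes of extracellular matrix organization and 10.8 of skeletal system development were expected in Del/+ up.

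Over the 19 matrix and skeletal terms, the median highest possible fold was 4.05 in Del/+ up, 6.71 in cluster 2, 7.38 in cluster 3 and 7.88 in cluster 4. In cluster 3, extracellular matrix organization held at most 14 of 212 genes, a fold of at most 4.14. In cluster 4, it held at most 14 of 162, a fold of at most 5.42, against 20 of 160 in cluster 1. The highest possible fold was below the interval of cluster 1 for 1 of the 19 terms in cluster 2, 4 in cluster 3 and 1 in cluster 4. Clusters 1 and 4 are nearly the same size, and at equal size a term that was not listed must hold fewer genes than one that was. In Kansl1+/- down the bound was below the interval for 3 of 19 terms and in Del/+ down for 0. Whether matrix and skeletal shares differ between these lists and cluster 1 was not tested.

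**Figure D5:**
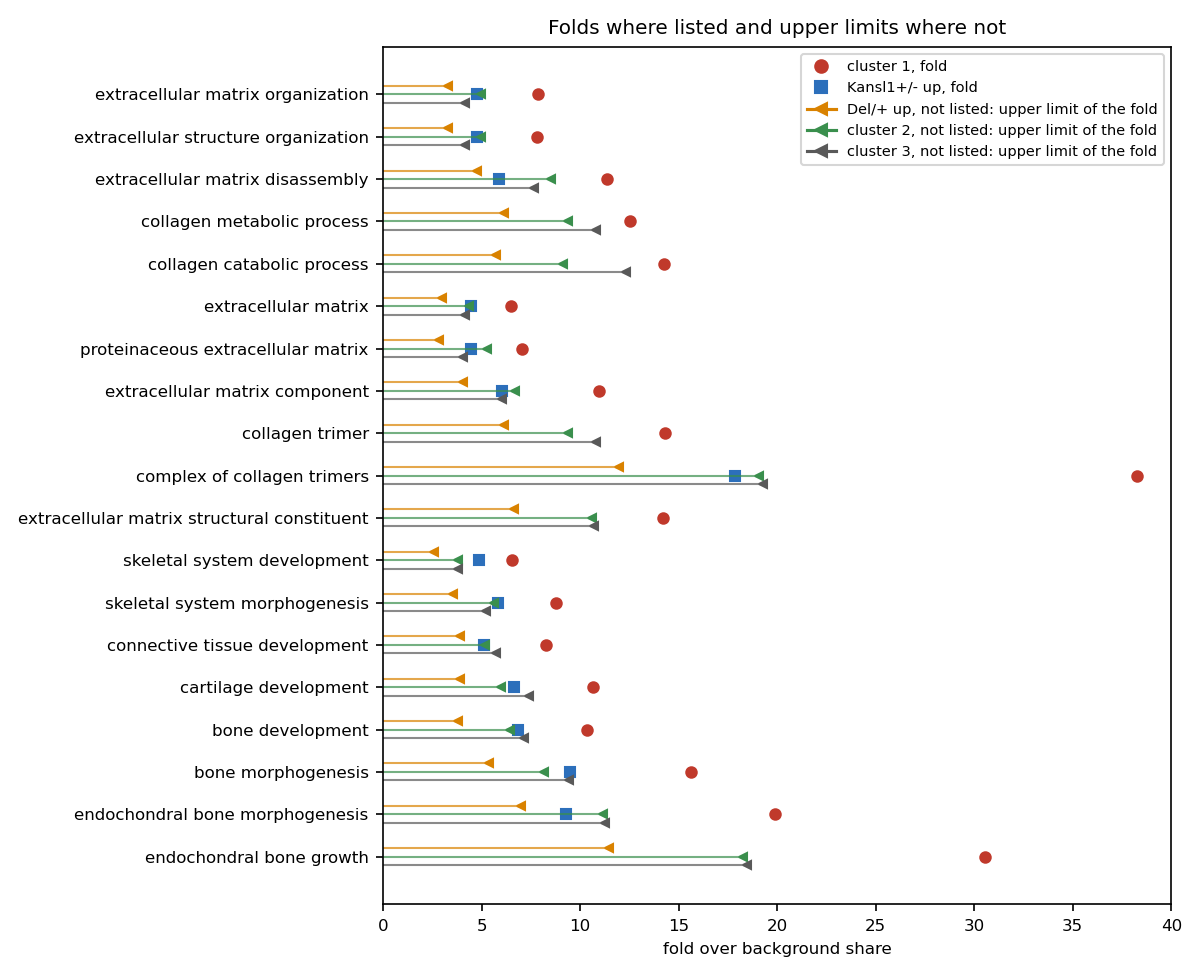
Fold over the background share of the 19 matrix and skeletal terms in cluster 1 (red circles) and Kansl1+/- up (blue squares), and the upper limit of the fold in Del/+ up (orange), cluster 2 (green) and cluster 3 (grey), where the terms were not listed. Lines run from 0 to the limit because any value up to it is possible, and the limits for Del/+ up lie between 2.60 and 12.0.

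Terms near the members in biology were taken by a fixed list of words for mesenchyme, limb, appendage, cell surface, heparin and adhesion to a substrate. Mesenchyme is the loose embryonic tissue from which cartilage, bone and connective tissue form. Of 12 such terms, 4 were listed for cluster 1, 10 for Kansl1+/- up and 0 for each of the other 6 lists, where 38.8% and 61.6% of all 490 terms were listed for cluster 1 and Kansl1+/- up. Nothing is read from these counts. In Kansl1+/- up, limb development held 13 genes, a fold of 4.73, and limb morphogenesis 12, a fold of 5.13. Appendage development and appendage morphogenesis held the same numbers, with folds of 4.68 and 5.10.

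Mesenchymal cell development held 8 genes of cluster 1, a fold of 8.21 (3.58 to 15.8), and 13 of Kansl1+/- up, a fold of 6.22. Mesenchymal cell differentiation held 14 genes of Kansl1+/- up, a fold of 6.14, mesenchyme development 16, a fold of 5.21, and epithelial to mesenchymal transition 10, a fold of 7.77. Cell surface held 21 genes of cluster 1, a fold of 3.83, and 33 of Kansl1+/- up, a fold of 2.80. Cell surface receptor signaling pathway held 89 genes of Kansl1+/- up, a fold of 1.58. Heparin is a sulfated sugar chain related to those of matrix proteoglycans. Cellular response to heparin held 3 of its 5 background genes in cluster 1 and response to heparin 3 of 6, folds of 88.0 and 73.3 with lower bounds of 18.2 and 15.2, which rest on 3 genes.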

How the data were processed

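H3K4me3 libraries of 12 hippocampi were mapped by the authors with BWA 0.6.2 to mm9, per the submitters' processing notes. The authors called peaks with a script of their own and promoters with DESeq2 (3 mutant against 6 wt libraries, uncorrected p-values), and tested GO terms with hypergeometric tests. The 8 deposited tables hold, per term with a p-value below 1e-05, the authors' raw, Bonferroni and Benjamini p-values (not used, except to check that 0 listed terms were at or above that threshold), the deposited counts of list and background genes, the number expected by chance, a deposited score, and the deposited fold ratio. The number of unused per-sample columns is 0. The depth per library is unknown.

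List and background sizes were found as the integers that return every printed expected number, searching backgrounds from 15000 to 40000, and 1 background size did so. Folds were recomputed from the counts and differed from the printed folds by at most 0.00465. Differences between nested terms and between lists were taken by subtraction, which assumes that the inner term lies wholly in the outer one. The recovery of list and background sizes and the limits for unlisted terms were also run on simulated data. The subtraction was not. No outcome of that run is given here, and no value above rests on it. GO terms take the place of named genes, and every member is named. Members, word lists and comparisons were chosen with earlier results of these data known. Alternatives were a narrower and a broader name rule, terms with at most 1000 genes, 1 gene fewer per term, and the authors' fold. Further ones were 1 cluster 1 gene outside Kansl1+/- up, and limits set only by listed terms with more background genes. Lists of gene names were not used here. The scripts ran in Python 3.11.15 with numpy 2.4.6 and scipy 1.17.1, and matplotlib 3.10.9 drew the figures.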

Additional observations from a re-analysis of the deposited data

How the results depend on the processing

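The count of members in cluster 2 fell from 3 to 0 with the narrower name rule, which leaves out the location and vesicle terms, and also with terms of at most 1000 genes; both leave out the only members listed there. The other counts stayed within 1.5 times: 19 to 25 in cluster 1, 14 to 31 in Kansl1+/- up, and 0 in the other 5 lists. Median folds ran from 9.78 to 10.98 in cluster 1, 4.57 to 5.87 in Kansl1+/- up and 1.80 to 1.83 in cluster 2. A further alternative put 1 cluster 1 gene of each term outside Kansl1+/- up. The share of extracellular matrix organization in the remaining genes was then 3.83% in place of 3.28%. Terms with few genes moved more, and extracellular matrix disassembly had 1.09% in place of 0.546%. Complex of collagen trimers and endochondral bone morphogenesis each had 0.546% in place of 0, so that neither was wholly in cluster 1. Limits set only by listed terms with more background genes are looser. They raised the median limit from 8 to 11 genes in cluster 3 and left it as it was elsewhere. No paired analysis was possible because the tables hold no values per mouse, and for the same reason no replicate could be left out. Calls of single promoters, the listing threshold and the background were taken as the authors chose them. How the 23468 background genes were chosen is unknown, and a background of genes with an H3K4me3 peak was not analysed here.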

Other observations

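Some sets outside the name rule also had high folds in cluster 1, and these were chosen after their values were seen. Positive regulation of BMP signaling pathway, a pathway named for the bone morphogenetic proteins, held 6 of its 36 background genes in cluster 1, a fold of 24.4. Regulation of BMP signaling pathway held 7 of 89, a fold of 11.5, and 9 genes of Kansl1+/- up, a fold of 6.92. Organ growth held 8 genes of cluster 1, a fold of 14.1, and 10 of Kansl1+/- up, a fold of 8.24. Developmental growth involved in morphogenesis held 10 and 12 genes of the same lists, with folds of 11.7 and 6.57.

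Among the vessels and heart, artery morphogenesis held 6 genes of cluster 1 and 8 of Kansl1+/- up, with folds of 14.7 and 9.12. Endocardial cushion development, which forms the heart valves from matrix-rich tissue, held 5 genes of cluster 1 of 34 in the background, a fold of 21.6. How many of these genes are also in the matrix or skeletal terms cannot be read from counts.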
